A study of Homo sapiens with 12 samples.

Results

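ATG8 proteins are small ubiquitin-like proteins that are coupled to lipid on the growing autophagosome, the double membrane that encloses cell contents and delivers them to the lysosome. They fall into a GABARAP subfamily and an LC3 subfamily (the MAP1LC3 genes). Cargo receptors hold material on one side and bind ATG8 proteins on the other, through a short peptide called the LC3-interacting region. In the intestine, autophagy is known for its part in epithelial renewal and in the handling of bacteria. The 10 genes described here, of 25528 rows in the expression table, are 5 ATG8 genes (GABARAP, GABARAPL1, GABARAPL2, MAP1LC3A and MAP1LC3B), 3 receptors (SQSTM1, NBR1 and OPTN), the lipid-binding protein WIPI1, and TFEB, a transcription factor of autophagy and lysosome genes. They were chosen by symbol as a family, after the low level of GABARAPL1 in CTNNB1 libraries and its difference between the 2 comparisons had been seen. That difference is made of both comparisons, so every GABARAPL1 change is given without a test. All 10 genes had rows, and all 10 passed the filter on low values in every comparison.

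The RNA came from HT-29, an established colon adenocarcinoma line whose APC is labelled as mutant in every group, and all cells had received a lentivirus. In the GFP and CTNNB1 groups the virus carried an open reading frame, for GFP as control or for CTNNB1, which encodes β-catenin, and the cells were collected 2 days after infection. In the shNT1 and shAPC groups it carried a hairpin, a control or one aimed at APC, and doxycycline (2 µM) was given to both groups 1 day before collection. The 4 groups hold 3 libraries each. The 2 comparisons, CTNNB1 against GFP and shAPC against shNT1, share no library. They differ in vector, time of collection and doxycycline as well as in the gene manipulated, so these cannot be told apart in any difference between the arms. The labels do not say whether libraries of a group came from separate cultures, and p-values measure only the spread between these libraries.

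Levels are TPM, transcript abundances scaled by gene length and to the same total in each library. TPM keeps no read depth, so depth is unknown. Between 14756 and 16186 genes were above 0 in a library, with the lowest number in shNT1 replicate 3. Pearson's r across genes was 0.9912 to 0.9974 between libraries of a group. APC was 16.4 TPM in shNT1 and 5.99 TPM in shAPC, and AXIN2, a WNT target, was higher in the perturbed group of both arms (39.2 to 81.6 TPM for CTNNB1 and 29.9 to 92.1 TPM for shAPC). CTNNB1 itself was 146 TPM in GFP and 160.1 TPM in CTNNB1, a log2 change of 0.13 with a limma adjusted p of 0.059. In each group 6 of 8 colon epithelial markers had a mean of at least 1 TPM, while the intestinal factors CDX1 and CDX2 stayed at or below 0.402 and 0.875 TPM. Of the 10 markers of other cell types, 1 had a mean of at least 1 TPM in GFP and shNT1, and 2 in CTNNB1 and shAPC. CD68 was 6.06 to 27.4 TPM and VIM 0.200 to 1.57 TPM, while CD3E was at 0 in every library and PTPRC at most 0.0217 TPM. In bulk RNA a lower level in every cell and a loss in some of the cells cannot be told apart.

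The coding ends of the ATG8 genes are shown first, because they mark what the family shares and where gene copies could be confused in counting. An ATG8 protein is cut after a glycine near its end, and that glycine is then joined to lipid. The last 60 bases of each coding sequence, stop codon included, are given with the codon of that glycine in capitals, from GENCODE v29 on GRCh38.
GABARAP, chr17:7240854-7240913, minus strand: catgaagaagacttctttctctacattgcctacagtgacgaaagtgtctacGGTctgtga
GABARAPL1, chr12:10221793-10221852, plus strand: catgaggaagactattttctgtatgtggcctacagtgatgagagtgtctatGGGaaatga
GABARAPL2, chr16:75577310-75577369, plus strand: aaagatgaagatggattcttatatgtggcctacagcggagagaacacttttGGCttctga
MAP1LC3A, chr20:34559839-34559898, plus strand: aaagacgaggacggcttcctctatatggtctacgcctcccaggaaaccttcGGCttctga
MAP1LC3B, chr16:87403038-87403097, plus strand: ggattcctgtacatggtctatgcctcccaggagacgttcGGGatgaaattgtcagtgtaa

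The glycine is codon 116 in the GABARAP genes and codon 120 in the MAP1LC3 genes. One further codon precedes the stop in GABARAP, GABARAPL1, GABARAPL2 and MAP1LC3A, and 5 further codons do so in MAP1LC3B. Over 354 coding bases GABARAPL1 was 76.8% identical to GABARAP, with a longest identical run of 14 bases, and 62.1% identical to GABARAPL2. GABARAPL1 is much closer to GABARAPL3, a processed pseudogene, with 338 of 354 bases identical and a longest identical run of 67. MAP1LC3B and MAP1LC3B2 differ at 2 of 378 bases. The 2 copies end as follows, with the same codon in capitals.
GABARAPL3, chr15:90348844-90348903, minus strand: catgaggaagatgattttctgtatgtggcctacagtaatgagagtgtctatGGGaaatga
MAP1LC3B2, chr12:116576261-116576320, plus strand: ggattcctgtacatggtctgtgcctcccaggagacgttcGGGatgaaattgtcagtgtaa

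GABARAPL3 held 0 to 1.17% of the summed TPM of its pair in a library, and with GABARAPL3 added the GABARAPL1 change was -1.37 in the CTNNB1 arm and 0.34 in the hairpin arm, the same as without it. MAP1LC3B2 held 8.74 to 14.4% of its pair, at 5.95 to 10.8 TPM, so MAP1LC3B levels are uncertain. How reads were divided within either pair is not given in the sources used here. MAP1LC3C, a further LC3 gene, was listed at 0 in 10 of 12 libraries.

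The receptors are shown by the 4 codons of the core of their LC3-interacting region, in capitals, within 30 coding bases, because this is the stretch that contacts the ATG8 proteins.
SQSTM1, chr5:179833620-179833649, plus strand: gatgatgacTGGACCCATCTGtcttcaaaa
NBR1, chr17:43200325-43200354, plus strand: tcagaggatTACATCATCATCctgcctgag
OPTN, chr10:13112606-13112635, plus strand: gaagattccTTTGTTGAAATTaggatggct

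The cores begin at codon 338 of SQSTM1, 732 of NBR1 and 178 of OPTN. No receptor has a core identical to another in bases. These sequences are from the reference, and the data hold only transcript levels.

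**Figure D1:**
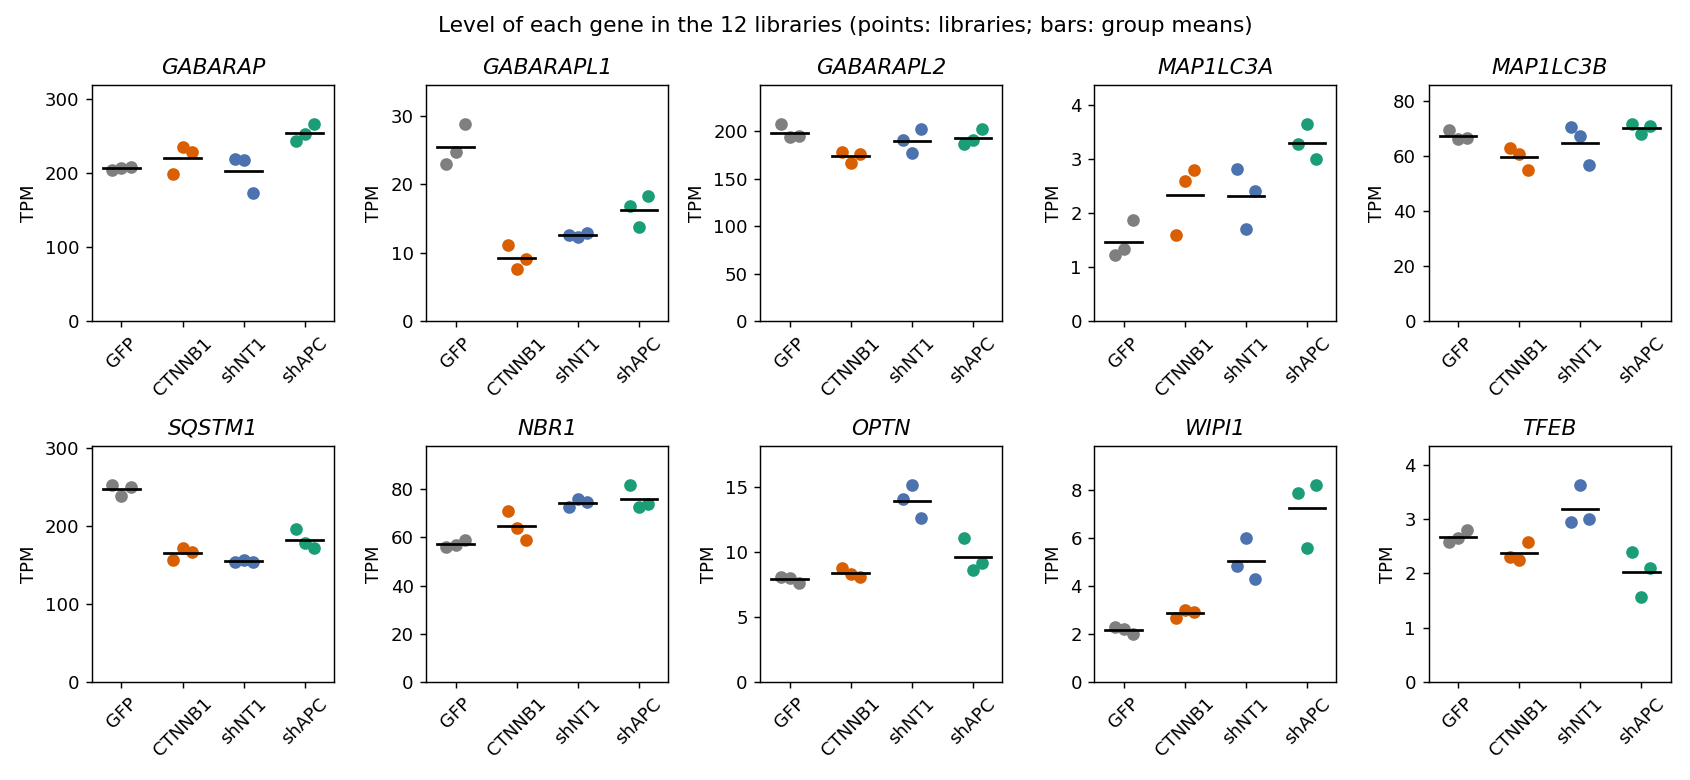
TPM of the 10 genes in the 12 libraries, with a panel per gene, a point per library and a bar at each group mean. GABARAPL1 and SQSTM1 are highest in the 3 GFP libraries, OPTN and TFEB in the 3 shNT1 libraries, and each panel has its own axis from 0.

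GABARAPL1, the ATG8 gene named for its likeness to GABARAP, was the member with the widest spread among the ATG8 genes. GFP libraries had 23.0, 24.7 and 28.7 TPM, and CTNNB1 libraries had 11.1, 7.69 and 9.04 TPM. The lowest GFP library was above the highest CTNNB1 library. The log2 change was -1.37 (SE 0.12, n = 3 libraries per group), rank 35 by size among 11624 genes, and between -1.50 and -1.26 when any 1 library was left out. In the hairpin arm shNT1 libraries had 12.5, 12.3 and 12.9 TPM and shAPC libraries had 16.9, 13.7 and 18.3 TPM. All 3 shAPC libraries were above the 3 shNT1 libraries, with a log2 change of 0.34 (SE 0.10), and of 0.26 to 0.46 when any 1 library was left out.

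The groups stood in the order GFP, shAPC, shNT1 and CTNNB1 for GABARAPL1, and no neighbouring groups in that order overlapped. Means were 25.5 ± 2.95, 16.3 ± 2.37, 12.6 ± 0.289 and 9.28 ± 1.71 TPM (SD, n = 3 each). The GFP mean was 2.75 times the CTNNB1 mean. The 2 control groups, GFP and shNT1, thus lay on opposite sides of shAPC, and CTNNB1 was closer to shNT1 than GFP was.

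GABARAP, the founding member of its subfamily, moved in the hairpin arm. It was 219.8, 218 and 173 TPM in shNT1 and 244, 253 and 266 TPM in shAPC. All 3 shAPC libraries were above the other 9 libraries. GABARAP rose by 0.33 (SE 0.09, adjusted p = 0.023, limma). The call was lost without shAPC replicate 1 (0.055), replicate 2 (0.065) or replicate 3 (0.083), with no filter (0.087) and with no variance trend (0.055). GFP libraries had 204.5, 207 and 208 TPM and CTNNB1 libraries 199, 235 and 229 TPM, and these overlap. That difference of 0.09 had an adjusted p of 0.3, and of 0.0071 without CTNNB1 replicate 1.

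GABARAPL2, the subfamily member best known from transport in the Golgi, was the steadiest of the ATG8 genes, with a highest group mean 1.14 times its lowest. It was 207, 193.5 and 195 TPM in GFP and 178, 167 and 176 TPM in CTNNB1, with no overlap. It fell by 0.19 on the log2 scale (SE 0.05, adjusted p = 0.018, limma), and the call was lost without GFP replicate 1 (0.089), GFP replicate 2 (0.053) or CTNNB1 replicate 2 (0.076). Between shNT1 (177 to 203 TPM) and shAPC (187 to 202 TPM) the difference was 0.02 with an adjusted p of 0.81.

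The LC3 genes passed the test in neither arm as deposited, MAP1LC3B being close to the threshold in the CTNNB1 arm. MAP1LC3B, whose protein is the usual marker of autophagosomes, had group means of 67.5 ± 1.70 TPM in GFP, 59.7 ± 4.16 in CTNNB1, 64.8 ± 7.29 in shNT1 and 70.2 ± 1.79 in shAPC (SD, n = 3). Its CTNNB1 libraries lay below the GFP libraries, at -0.18 (SE 0.06, adjusted p = 0.059, limma). With MAP1LC3B2 added the value was -0.20 and the adjusted p 0.018. It also passed with median-ratio scaling (-0.24, 0.011), with quantile normalization (-0.21, 0.021), with a replicate block (0.041) and without CTNNB1 replicate 1 (0.013). MAP1LC3A, the least abundant of the 5 at 1.22 to 3.64 TPM, was highest in shAPC, whose 3 libraries were above all others. Its differences of 0.42 in the CTNNB1 arm (adjusted p = 0.087) and 0.39 in the hairpin arm (0.064) did not pass. In the CTNNB1 arm MAP1LC3A passed without CTNNB1 replicate 1 (0.012) and with a replicate block (0.031). In the hairpin arm it passed without shNT1 replicate 1 (0.035) and, at the threshold, with median-ratio scaling (0.05 after rounding). At such levels the added 1 in log2(TPM + 1) makes a change look smaller.

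The 5 ATG8 genes together summed to 499 ± 6.22 TPM in GFP, 466 ± 10.8 in CTNNB1, 473 ± 24.6 in shNT1 and 537 ± 20.4 in shAPC (SD, n = 3). GABARAP and GABARAPL2 made up most of that sum in every group. GABARAPL1 was 5.10% ± 0.602 of it in GFP, 2.00% ± 0.415 in CTNNB1, 2.66% ± 0.186 in shNT1 and 3.03% ± 0.383 in shAPC. The lowest GFP share, 4.55%, was above the highest share elsewhere, 3.27%. Shares of shNT1 (2.52 to 2.87%) and shAPC (2.59 to 3.27%) overlapped, through shAPC replicate 2 alone. Both the GABARAPL1 level and the sum of the family were higher in shAPC than in shNT1. GABARAP was 41.4% of the sum in GFP and 47.4% in CTNNB1, and 42.9% in shNT1 and 47.3% in shAPC. These shares are of transcripts and carry no test.

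**Figure D2:**
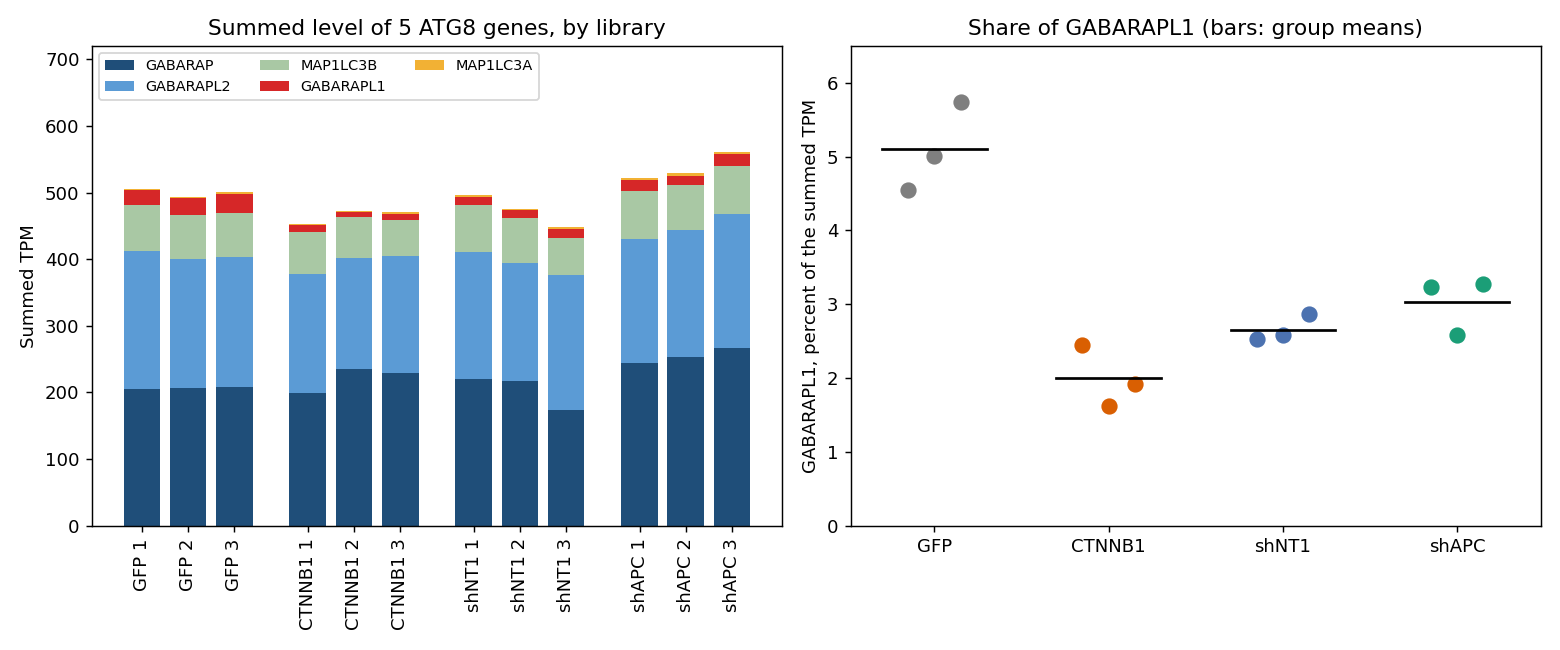
Left, summed TPM of the 5 ATG8 genes in each of the 12 libraries, stacked by gene; right, GABARAPL1 as a percent of that sum, with a point per library and a bar at each group mean. GABARAPL1 takes 4.55 to 5.74% in GFP libraries and 1.63 to 3.27% in the other 9.

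SQSTM1, which encodes the receptor p62 for ubiquitinated cargo, moved in opposite directions in the 2 arms. It was 252, 239 and 249 TPM in GFP and 157, 172 and 166 TPM in CTNNB1. The groups lay far apart, and SQSTM1 fell by 0.58 on the log2 scale (SE 0.05, adjusted p = 5.5e-05, limma). That call was kept in each alternative tried, with adjusted p from 2.8e-06 to 0.0013. In shNT1 it was 154, 156 and 154 TPM and in shAPC 196, 178.5 and 171 TPM. It rose by 0.23 there (SE 0.06, adjusted p = 0.018, limma), a call lost without shNT1 replicate 1 (0.058). As with GABARAPL1, the GFP libraries were above all others for SQSTM1, and the CTNNB1 libraries overlapped the hairpin group shAPC.

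OPTN, the receptor optineurin for damaged mitochondria and bacteria, changed in the hairpin arm. It was 14.1, 15.1 and 12.6 TPM in shNT1 and 11.0, 8.61 and 9.18 TPM in shAPC, without overlap. OPTN fell by 0.50 on the log2 scale (SE 0.10, adjusted p = 0.006, limma), with adjusted p from 9e-04 to 0.038 over the alternatives. GFP (7.62 to 8.07 TPM) and CTNNB1 (8.09 to 8.74 TPM) differed by 0.08 (SE 0.07, adjusted p = 0.44). The shNT1 libraries were the ones that stood above all others.

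NBR1, a receptor related to SQSTM1, passed the test in neither arm. It was 55.9 to 59.0 TPM in GFP and 59.1 to 71.1 TPM in CTNNB1, a difference of 0.17 (SE 0.07, adjusted p = 0.097, limma; 0.027 without CTNNB1 replicate 3). It was 72.4 to 76.0 TPM in shNT1 and 72.5 to 81.7 TPM in shAPC, a difference of 0.03 (SE 0.06, adjusted p = 0.76). Its levels separated the arms rather than the groups within the hairpin arm.

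WIPI1, which binds the phosphoinositide that marks sites of autophagosome formation, was called higher in both arms. GFP libraries had 2.29, 2.21 and 2.01 TPM and CTNNB1 libraries 2.68, 2.99 and 2.92 TPM. The change was 0.29 (SE 0.09, adjusted p = 0.049, limma), close to the threshold. The call held without CTNNB1 replicate 1 and was lost without GFP replicate 1 (0.093), 2 (0.12) or 3 (0.15) or CTNNB1 replicate 2 (0.15) or 3 (0.092). shNT1 libraries had 4.81, 5.99 and 4.30 TPM and shAPC libraries 7.89, 5.60 and 8.20 TPM, and these overlap. The change of 0.44 (SE 0.14, adjusted p = 0.048) was lost without shNT1 replicate 1 (0.093) or 3 (0.1) or shAPC replicate 1 (0.16) or 3 (0.17). Median-ratio scaling and quantile normalization also ended the call in each arm (0.088 and 0.25 for CTNNB1, 0.051 and 0.065 for shAPC).

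TFEB, which drives lysosome genes when mTORC1 is inactive, was lowest in shAPC. It was 2.94, 3.63 and 2.99 TPM in shNT1 and 2.39, 1.57 and 2.10 TPM in shAPC, without overlap. TFEB fell by 0.48 on the log2 scale (SE 0.13, adjusted p = 0.025, limma). The call was lost without shNT1 replicate 2 (0.075), shAPC replicate 2 (0.092) or shAPC replicate 3 (0.061), with no filter (0.069) and with a replicate block (0.052). GFP libraries (2.58 to 2.80 TPM) and CTNNB1 libraries (2.26 to 2.59 TPM) overlapped, at -0.12 (adjusted p = 0.37).

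**Figure D3:**
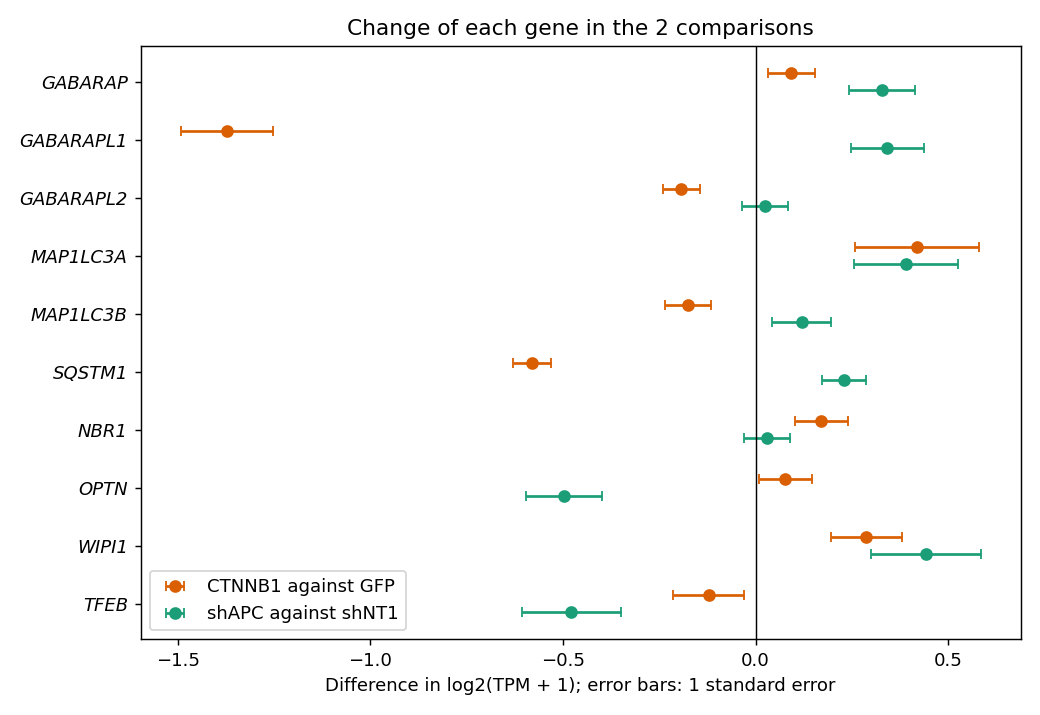
Difference in log2(TPM + 1) of each gene, for CTNNB1 against GFP and for shAPC against shNT1, with bars of 1 standard error from limma. GABARAPL1 and SQSTM1 lie left of 0 in the first comparison and right of 0 in the second, and OPTN and TFEB lie farthest left in the second.

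Counted over the family, 3 of the 9 members other than GABARAPL1 were called in CTNNB1 against GFP, 1 higher (WIPI1) and 2 lower (SQSTM1 and GABARAPL2). Of all 11624 genes tested 23.5% were called, 16.3% higher and 7.16% lower. The median log2 change was 0.08 over these 9 and 0.06 over all genes. In shAPC against shNT1, 5 of these 9 members were called, 3 higher (GABARAP, SQSTM1 and WIPI1) and 2 lower (OPTN and TFEB), where 22.1% of 11834 genes were called, 7.24% higher and 14.9% lower. The median was 0.12 over the 9 members and -0.05 over all genes. Leaving out a library gave 1 to 6 of the 9 in the CTNNB1 arm and 2 to 4 in the hairpin arm. There 2 were called with no filter and 3 with no variance trend. Libraries of the 2 groups did not overlap for 6 of the 9 members in the CTNNB1 arm (43.2% of all genes) and for 5 of the 9 in the hairpin arm (40.9%). As the family was chosen with both arms in view, nothing is read from these counts.

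The balance of calls over all genes depended on scaling. Called genes were 69.5% higher in the CTNNB1 arm as deposited, 49.4% with median-ratio scaling and 52.9% with quantile normalization. In the hairpin arm the share was 32.8%, 47.6% and 49.4%. In the difference between arms it was 82.8%, 55% and 56.5%, and the median of all genes there was 0.11 as deposited and 0.00 with median-ratio scaling, so differences between the arms are to be read against 0.11.

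The change in the CTNNB1 arm minus the change in the hairpin arm was tested for the other 9 members in a single fit of the 12 libraries, and 2 passed (16.1% of 11741 genes, 13.3% higher and 2.76% lower). SQSTM1 differed by -0.81 (SE 0.07, adjusted p = 2.8e-05, limma), with adjusted p from 8.8e-06 to 0.00077 over the alternatives. OPTN differed by 0.57 (SE 0.12, adjusted p = 0.0078), with adjusted p from 0.0021 to 0.033. GABARAPL1 differed by -1.71, given without a test. GABARAPL2 (-0.22, adjusted p = 0.071) and MAP1LC3B (-0.30, 0.065) did not pass as deposited and did with median-ratio scaling (-0.33, 0.017 and -0.41, 0.031). MAP1LC3A had like values in both arms, with a difference of 0.03 (SE 0.22, adjusted p = 0.95). WIPI1 differed by -0.15 (0.58), GABARAP by -0.24 (0.18), NBR1 by 0.14 (0.31) and TFEB by 0.36 (0.13).

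Over the 4 groups, GFP stood apart for 5 members, among them GABARAPL1, the gene for which the family was chosen. As the family was chosen with both arms in view, nothing is read from the count of any group. The 3 GFP libraries were above the other 9 for GABARAPL1 and SQSTM1 and below them for NBR1, OPTN and WIPI1. The GFP group was apart in this way for 21.4% of all genes. The shNT1 libraries were apart for OPTN and TFEB (above) and SQSTM1 (below), with 5.36% of all genes. The shAPC libraries were apart for GABARAP and MAP1LC3A, both above, with 20.5% of all genes, and the CTNNB1 libraries for GABARAPL1 alone, below, with 5.39%. In CTNNB1 against GFP, GABARAPL1 and SQSTM1 are thus compared with a GFP group that also lies above both hairpin groups, the shNT1 control included. The CTNNB1 libraries were themselves below all others for GABARAPL1 and not for SQSTM1. In shAPC against shNT1, OPTN, TFEB and SQSTM1 are likewise compared with an shNT1 group apart from all others. Whether the lentiviral vector, the time or doxycycline takes part in the distance of GFP from the hairpin groups cannot be told apart. The 10 markers of other cell types summed to 27.6 to 28.2 TPM in GFP and 13.8 to 15.7 in CTNNB1. They summed to 14.2 to 16.7 TPM in shNT1 and 8.06 to 10.2 in shAPC. Most of each sum was CD68, with means of 27.0 TPM in GFP, 13.2 in CTNNB1, 13.8 in shNT1 and 7.51 in shAPC. The sum thus describes CD68 and not the list. VIM and COL3A1, at most 1.57 and 0.0477 TPM in any library, lay higher in CTNNB1 than in GFP without overlap. Of the list, CD68 alone lay lower there without overlap. The 8 colon epithelial markers summed to 10688 to 10825 TPM in GFP, 12128 to 12258 in CTNNB1, 8577 to 10340.0 in shNT1 and 8521 to 9447 in shAPC. The part of either in the members' values was not tested.

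For the 9 members other than GABARAPL1, the authors' deposited table of each arm gave the same sign as the values above for 9 of 9. Under an adjusted p of 0.05 the authors' deposited table of the CTNNB1 arm called 3 of the 9, SQSTM1, GABARAPL2 and MAP1LC3B. MAP1LC3B was not called here, and WIPI1, called here, was not called in the authors' deposited table. In the hairpin arm the authors' deposited table called 1 of the 9, SQSTM1 (0.27, adjusted p = 0.01). The authors' deposited table gave OPTN -0.49 with an adjusted p of 0.055, TFEB -0.61 with 0.088, GABARAP 0.36 with 0.17 and WIPI1 0.56 with 0.18. The calls of these 4 genes in the hairpin arm therefore differ between the TPM fit and the authors' deposited table. For GABARAPL1 the authors' deposited table gave changes of -1.56 and 0.40 in the 2 arms.

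Other genes of the pathway were taken from 10 lists with 122 genes. These lists were chosen with earlier results of these data known, so nothing is read from the counts per list. In CTNNB1 against GFP 17 of 109 tested genes were called higher and 12 lower, and in shAPC against shNT1 8 of 110 were higher and 10 lower. Over all genes 16.3% were higher and 7.16% lower in the first comparison, and 7.24% and 14.9% in the second. The balance of the pathway genes turned with scaling. With median-ratio scaling 10 were higher and 20 lower in the CTNNB1 arm and 18 higher and 8 lower in the hairpin arm, and with quantile normalization 12 and 16, and 16 and 10. Leaving out a library gave 14 to 34 called pathway genes in the CTNNB1 arm and 13 to 16 in the hairpin arm. None of the 4 tested members of the ULK complex, the kinase that starts autophagy, was called by limma in either arm, with 1 at an unadjusted p under 0.05 in each. With shAPC, 2 of the 4 were called higher with median-ratio scaling, 2 with quantile normalization and 1 in a single fit of all groups. Of the 8 members of the phosphatidylinositol 3-kinase complex AMBRA1 was called higher in the CTNNB1 arm, a call kept in 7 of 15 alternatives, and none in the hairpin arm by limma, where 1 had an unadjusted p under 0.05.

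The enzymes that couple ATG8 proteins to lipid gave 1 higher and 2 lower genes of 11 in the CTNNB1 arm. ATG4A, a protease that trims ATG8 proteins and prefers the GABARAP subfamily, fell from 12.2 to 7.21 TPM (-0.69, SE 0.09, adjusted p = 0.00047, limma). ATG10, an enzyme of the ATG12 conjugation step, rose from 5.21 to 7.52 TPM (0.46, adjusted p = 0.0055). Both calls were kept in 15 of 15 alternatives. With shAPC 2 of 11 were lower. ATG4A was 8.07 TPM in shNT1 and 6.52 in shAPC (-0.27, adjusted p = 0.031), kept in 7 of 15 alternatives and lost without shNT1 replicate 1 (0.09) or 2 (0.087) or any of shAPC replicates 1 (0.073), 2 (0.052) and 3 (0.075). ATG16L1, which places the conjugation machinery on the membrane, was the other, kept in 8 of 15.

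The proteins of membrane growth gave 1 higher and 2 lower of 8 in the CTNNB1 arm and 1 lower of 8 in the hairpin arm. WIPI2, a relative of WIPI1 that recruits the conjugation machinery, was 35.2 TPM in GFP and 40.7 in CTNNB1 (0.20, adjusted p = 0.035, limma), a call kept in 7 of 15 alternatives and lost with either scaling. TMEM41B and VMP1, both lipid scramblases, fell in the CTNNB1 arm, from 83.3 to 66.8 TPM (-0.32, adjusted p = 0.0034, limma) and from 149 to 121 TPM (-0.30, adjusted p = 0.0059). WDR45B, of the same family as WIPI1, fell in the hairpin arm from 93.0 to 73.9 TPM (-0.33, adjusted p = 0.0032). The calls of TMEM41B, VMP1 and WDR45B were kept in 15 of 15 alternatives. Further autophagy receptors gave 3 higher and 1 lower of 15 in the CTNNB1 arm and 2 higher and 1 lower in the hairpin arm, and with median-ratio scaling 3 and 5 in the CTNNB1 arm. CALCOCO1, a receptor for the endoplasmic reticulum and Golgi, rose in both arms, from 16.9 to 25.5 TPM (0.57, SE 0.06, adjusted p = 0.00023) and from 20.7 to 33.3 TPM (0.66, SE 0.07, adjusted p = 0.00013). BNIP3L, a receptor for mitochondria, rose from 18.3 to 23.6 TPM in the hairpin arm (0.35, adjusted p = 0.0077).

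**Figure D4:**
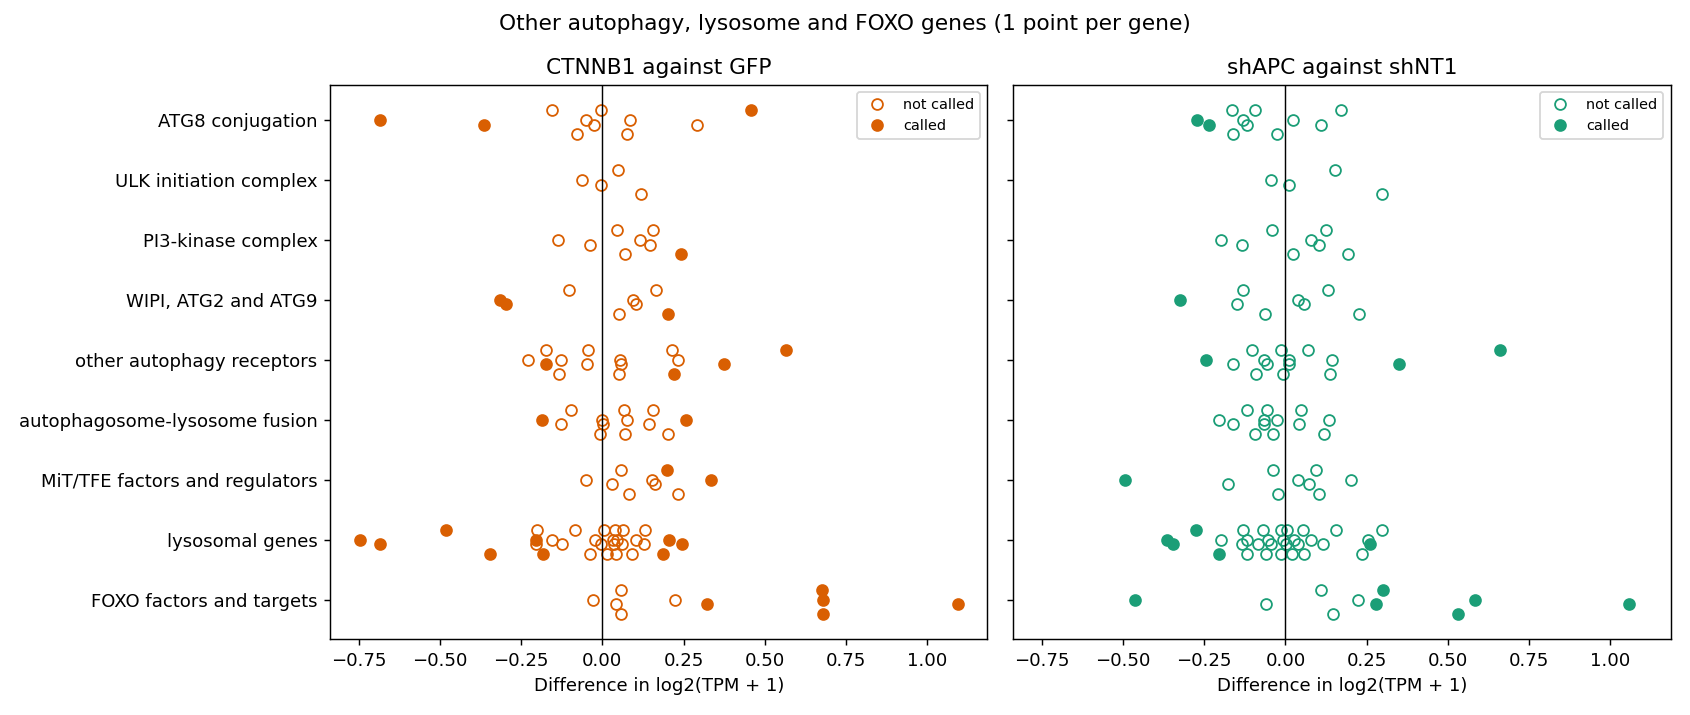
Difference in log2(TPM + 1) for each tested gene of 9 lists of the pathway, in CTNNB1 against GFP (left) and shAPC against shNT1 (right); filled points passed a limma adjusted p of 0.05. FOXO targets include the largest rise in both panels (SESN1, 1.09 and 1.06), and lysosomal genes the largest fall at the left (GLA, -0.75).

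Lysosomal genes gave 3 higher and 6 lower of 30 in the CTNNB1 arm, with a median change of 0.01, and 1 higher and 9 lower with median-ratio scaling (median -0.05). With quantile normalization they gave 2 higher and 8 lower. The protease CTSD fell from 589.9 to 368 TPM (-0.68, SE 0.07, adjusted p = 1e-04, limma), and GLA, the lysosomal α-galactosidase, fell from 161 to 95.8 TPM (-0.75, SE 0.05, adjusted p = 1.2e-05). Neither passed in the hairpin arm (CTSD 0.02, adjusted p = 0.86, and GLA -0.05, 0.53). The difference between arms was -0.71 for CTSD and -0.69 for GLA. Both genes were picked for their fall in the CTNNB1 arm, so that difference is given without a test. CTSZ, another cathepsin, rose in the CTNNB1 arm from 322 to 382 TPM (0.25, adjusted p = 0.0048) and fell in the hairpin arm from 374 to 294 TPM (-0.35, adjusted p = 0.00077). In the hairpin arm 1 lysosomal gene was higher and 4 were lower of 31, which became 4 higher and 3 lower with median-ratio scaling and 3 higher and 4 lower with quantile normalization. As for SQSTM1, GFP libraries lay above all others for GLA, CTSD, ATG4A, ATG4D, TMEM41B, VMP1 and BCL2L13. They lay below all others for ATG10, CALCOCO1, BNIP3L, FNIP1, RRAGA, SCARB2, NPC2, TXNIP, FOXO3 and SESN1. For AMBRA1, WIPI2, STX17, VAMP8 and CTSZ the GFP libraries were not apart in this way. Of 11741 genes, GFP was above all others for 780 and below for 1734. In the CTNNB1 arm such genes are thus compared with a GFP group that also differs from both hairpin groups.

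The relatives and regulators of TFEB gave 2 higher of 9 in the CTNNB1 arm, FNIP1 and RRAGA, and 1 lower of 9 in the hairpin arm. That gene was FNIP2, a partner of folliculin, which fell from 18.7 to 12.95 TPM (-0.49, adjusted p = 0.0033, limma). The fusion proteins gave 1 higher (STX17) and 1 lower (VAMP8) of 13 in the CTNNB1 arm, and by limma none in the hairpin arm, where 2 had an unadjusted p under 0.05. The calls of FNIP1, RRAGA, STX17 and VAMP8 were kept in 7 to 11 of 15 alternatives.

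FOXO factors and their usual targets gave 5 higher and none lower of 10 in the CTNNB1 arm, and 5 higher and 1 lower of 10 in the hairpin arm. Of all genes 16.3% were higher and 7.16% lower in the CTNNB1 arm, and 7.24% and 14.9% in the hairpin arm. This list too was chosen with earlier results of these data known, so nothing is read from its counts. The list's median changes were 0.27 and 0.25, and under each alternative the counts were 4 or 5 higher and none lower in the CTNNB1 arm and 4 to 6 higher and 1 or 2 lower in the hairpin arm. SESN1, a stress-induced inhibitor of mTORC1, rose from 9.79 to 22.2 TPM (1.09, SE 0.11, adjusted p = 0.00015, limma) and from 12.5 to 27.1 TPM (1.06, SE 0.08, adjusted p = 1.9e-05). FOXO3 had means of 22.2 TPM in GFP and 36.3 in CTNNB1, a rise (0.68, adjusted p = 0.00032). TXNIP, which binds thioredoxin, rose from 82.7 to 124.6 TPM in the hairpin arm (0.58, adjusted p = 0.00014), and FOXO1 fell there from 14.1 to 9.95 TPM (-0.46, adjusted p = 0.002). These calls of SESN1, FOXO3, TXNIP and FOXO1 were kept in 15 of 15 alternatives.

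Across the pathway lists 7 genes were called higher in both arms (CALCOCO1, BNIP3L, NPC2, FOXO3, SESN1, CCNG2 and TXNIP), 3 lower in both (ATG4A, BCL2L13 and CD63), and CTSZ in opposite directions. Of 11556 genes tested in both arms 4.08% were called higher in both, 3.24% lower in both and 1.03% in opposite directions. Some of these calls were often lost: BNIP3L kept its call in the CTNNB1 arm in 11 of 15 alternatives, NPC2 in the hairpin arm in 9, ATG4A in the hairpin arm in 7, and BCL2L13 in 8 in the CTNNB1 arm and 10 in the hairpin arm. Alternatives were not examined for CCNG2 and CD63 in either arm, NPC2 and TXNIP in the CTNNB1 arm, or FOXO3 in the hairpin arm. Of the 9 members other than GABARAPL1, WIPI1 was called higher in both arms and SQSTM1 in opposite directions.

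The genes whose levels followed GABARAPL1 most closely over the 12 libraries, among 9438 with a mean of at least 5 TPM, were SELENOK (Pearson's r = 0.943), TBC1D15 (0.942), TTC1 (0.925), ZNF222 (0.906) and TATDN1 (0.904). The 12 libraries fall into 4 groups, so these values describe mainly the 4 group means. SELENOK, a selenoprotein of the endoplasmic reticulum, had means of 88.6 TPM in GFP, 63.8 in CTNNB1, 67.5 in shNT1 and 73.9 in shAPC. TBC1D15, which acts on the GTPase RAB7, had 34.0, 27.5, 28.95 and 29.3 TPM in the same order. GFP was the highest group for all 5 genes, which their choice by correlation with GABARAPL1 largely fixed in advance.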

How the data were processed

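RNA-seq of 12 HT-29 libraries was used. The authors deposited a table of TPM per gene, and tables of their own comparisons with log2 fold changes and adjusted p-values, per the file headers. The submitters' processing notes name STAR 2.7.3a, hg38 and limma; the quantifier and gene annotation are not given in the sources used here. Strandedness is not stated, so antisense reads cannot be told apart.

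Here log2(TPM + 1) was fitted with limma 3.58.1 in R 4.3.3, with a mean-variance trend, for genes with a mean of at least 1 TPM. Each arm was fitted alone, and the difference between arms in a single fit of 12 libraries. A gene was called at a Benjamini-Hochberg adjusted p under 0.05 over all genes tested. GABARAPL1 was planned with a test in the hairpin arm and is given without one, since the difference it was chosen for includes that arm. Fold changes on this scale understate those of low genes. The fit was also run on simulated data with a fixed spread and a baseline shared by all groups, unlike these data. Nothing is read from that run here. TPM keeps no depth, so no counting interval is given.

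The members, gene lists and markers (colon epithelial, and fibroblast, leukocyte and endothelial) were chosen with earlier results of these data known. Pathway genes were named as the up to 2 largest called rises and falls per list and arm at a mean of at least 5 TPM; the statements on genes called in both arms also name CCNG2 and CD63, chosen after their values were seen. The 5 genes most like GABARAPL1 follow Pearson's r. Other settings tried were no filter, a mean of at least 5 TPM, 0.1 as the added constant, median-ratio scaling, quantile normalization, no trend, a replicate block, a fit of all groups, summed near-identical copies, and leaving out each library. Sequences and coordinates are from GENCODE v29 on GRCh38, matched by symbol for the genes shown.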

Additional observations from a re-analysis of the deposited data

Results flagged for a closer look

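Some genes differed between the 2 arms in their response, as CTNNB1 minus GFP less shAPC minus shNT1 on the log2 scale. SQSTM1 had -0.81 (limma adjusted p = 2.8e-05) and OPTN 0.57 (adjusted p = 0.0078). SQSTM1 was lower with CTNNB1 and higher with shAPC, while OPTN was called only in the hairpin arm. GABARAPL1 had -1.71, with every CTNNB1 library below every GFP library and every shAPC library above every shNT1 library; that difference was not tested. Among lysosomal genes, GLA had -0.69, CTSD -0.71 and CTSZ 0.59. These lysosomal genes were picked for the size of their changes within the arms, so their differences are given without a test. The arms differ in vector, time and doxycycline, and their part in these differences cannot be told apart.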

How the results depend on the processing

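Leaving out each library gave 1499 to 3190 called genes in the CTNNB1 arm (2730 with all), 1484 to 2252 in the hairpin arm (2615) and 995 to 2143 in the difference (1885). Called members, GABARAPL1 not counted, then numbered 1 to 6 (3), 2 to 4 (5) and 2 to 3 (2), and pathway genes 14 to 34 (29) and 13 to 16 (18). In the hairpin arm 2 members were called with no filter and 3 with no variance trend. In the difference 4 members were called with median-ratio scaling and 4 with quantile normalization, and 1145 genes with the replicate block.

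With the replicate block the CTNNB1 arm had 2895 called genes, 4 members and 29 pathway genes, and the hairpin arm 1767, 3 and 12. In the CTNNB1 arm MAP1LC3A (limma adjusted p = 0.031) and MAP1LC3B (0.041) then passed, and WIPI1 was lost (0.068). In the hairpin arm WIPI1 (0.077) and TFEB (0.052) were lost. Same-numbered libraries correlated in their deviations at 0.216, 0.07 and 0.115 in the CTNNB1 arm. Libraries of other numbers had means of -0.125, -0.026 and -0.049 there. In the hairpin arm the values were -0.146, -0.006 and -0.206, against means of 0.058, 0.005 and 0.118. The labels do not say that a number marks a shared day or culture, so the numbers were not taken as pairs.

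Signs turned only for values that had not passed. OPTN in the CTNNB1 arm was -0.025 with quantile normalization. Leaving out a library gave -0.026 to 0.071 for GABARAPL2 and -0.023 to 0.063 for NBR1 in the hairpin arm, and -0.081 to 0.197 for the MAP1LC3A difference, which was -0.045 with median-ratio scaling and -0.07 with quantile normalization. The cause was not tested. SQSTM1 and OPTN kept their calls in the difference, SQSTM1 in the CTNNB1 arm and OPTN in the hairpin arm, under each alternative run.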

Other observations

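CD68, a lysosomal membrane protein often used as a macrophage marker, was the main part of the summed markers of other cell types and was singled out after its values were seen. It fell from 27.0 ± 0.397 TPM in GFP to 13.2 ± 1.12 in CTNNB1 (SD, n = 3; -0.98, limma adjusted p = 2.4e-05) and from 13.8 ± 0.691 in shNT1 to 7.51 ± 1.27 in shAPC (-0.81, adjusted p = 0.00067). PTPRC, the pan-leukocyte marker, was at most 0.0217 TPM in any library. GFP was the highest group for CD68, as for GABARAPL1 and SQSTM1.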
